A study of Homo sapiens with 12 samples.

Results

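The α subunit of the translation initiation factor eIF2 is phosphorylated by 4 kinases and dephosphorylated by protein phosphatase 1 bound to 1 of 2 regulatory subunits. The transcripts of these 7 genes, out of 35559 genes with a matched transcript, were followed in melanoma cells that received TYRO3 constructs. The genes were chosen by name: the kinases EIF2AK1 (HRI), EIF2AK2 (PKR), EIF2AK3 (PERK) and EIF2AK4 (GCN2), the phosphatase subunits PPP1R15A (GADD34) and PPP1R15B (CReP), and the substrate EIF2S1. Each kinase senses a different condition: heme shortage and mitochondrial stress for HRI, double-stranded RNA for PKR, misfolded protein in the endoplasmic reticulum for PERK, and amino acid shortage for GCN2. Phosphorylated eIF2α lowers general translation while favoring a few mRNAs such as ATF4, a program known as the integrated stress response. ATF4 and its partners in turn induce PPP1R15A, which closes a feedback loop, whereas PPP1R15B is regarded as the constitutive subunit. EIF2AK2 is also known as an interferon-stimulated gene. The libraries measure mRNA, and the phosphorylation of eIF2α or of the kinases was not measured in them.

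The cells were WM-266-4, a human melanoma cell line, and every group, the control included, carried a stable lentiviral shRNA knock-down of the receptor tyrosine kinase TYRO3 and was kept under puromycin. The plasmid pEZY-myc-his was then introduced by transient transfection with jetPRIME and carried GFP (control), wild-type TYRO3 (WT), the γ-secretase-resistant variant ΔGS (I449A) or the ADAM-resistant variant ΔADAM (P408A, L409P and G419P), followed by serum starvation overnight. Both variants resist a step of the proteolysis that releases the intracellular domain of the receptor, so that the comparisons address the effect of the receptor on the transcriptome and whether the effect depends on cleavage. There were 12 libraries, 1 per group in each of 3 experiments. The labels name GFP as the insert of the control plasmid, whereas the paper describes the control as a vector without TYRO3, so that the insert of the control to which all folds refer is not settled. Transfected and untransfected cells of a dish were sequenced together, and no library without the knock-down was analyzed here.

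Totals of estimated counts ran from 4008293 in the GFP library of experiment 1, followed by 18365999, to 38184838. TYRO3 lay between 47.3 and 56.6 CPM (counts scaled to the total of the library) in the 3 GFP libraries and between 1181 and 3694 CPM in the 9 TYRO3 libraries, so that the labels and the transfected gene went together in all 12. The 7 melanocyte and melanoma markers had a summed level of 1643 to 1988 TPM (a level scaled for transcript length and library total) in GFP, 1065 to 1983 in WT, 1095 to 1602 in ΔGS and 1101 to 1658 in ΔADAM. Of these 7 markers, 2 (MITF and DCT, named after their values were seen) were called lower in all TYRO3 constructs against GFP, beside 5.7% of all genes called, with a median log2 fold change of -0.47 over the list. The list had 0 calls without a term for experiment, 0 without the GFP library of experiment 1 and 1 in experiments 2 and 3 alone, and the part of this shift in the other results was not tested. The 8 markers of other cell types summed to between 0.453 and 2.93 TPM, and KRT5 and ALB were at 0 in all 12 libraries. In bulk RNA, a change in the number of cells that express a gene and a change in the RNA per cell cannot be told apart.

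The promoters of 6 of the 7 genes (250 bases before to 50 bases after the transcription start, RefSeq, build GRCh38.p14) were searched for 4 short motifs known from interferon and stress signaling, and the stretches are shown since EIF2AK2 and both phosphatase subunits are set beside the genes of these programs. The 3 stretches around the matches are written 5′ to 3′ on the strand of the gene, with the matched letters in capitals. The EIF2AK2 stretch lies at chr2:37156937-37157026 (minus strand) and holds the interferon-stimulated response element GAAANNGAAA, the PPP1R15A stretch at chr19:48872323-48872410 (plus strand) the cyclic AMP response element TGACGTCA, and the PPP1R15B stretch at chr1:204411997-204412067 (minus strand) the C/EBP-ATF response element TGATGCAA.
EIF2AK2: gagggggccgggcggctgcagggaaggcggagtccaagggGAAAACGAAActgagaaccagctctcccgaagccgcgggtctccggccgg
PPP1R15A: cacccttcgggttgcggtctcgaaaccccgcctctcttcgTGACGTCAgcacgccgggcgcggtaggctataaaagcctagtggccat
PPP1R15B: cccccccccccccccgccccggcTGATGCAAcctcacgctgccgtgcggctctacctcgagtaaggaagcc

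Both strands were searched, and none of the 4 motifs overlapped another in these windows. The interferon element was found in 3.57% of all 35116 RefSeq promoters of this length, the C/EBP-ATF element in 0.866% and the cyclic AMP element in 1.85%. The match in EIF2AK2 began 6 bases before the annotated start, that in PPP1R15A 58 bases and that in PPP1R15B 227 bases before it. The endoplasmic reticulum stress element (CCAAT, 9 bases of any kind, CCACG), present in 0.0769% of promoters, was not matched in the 6 windows, and EIF2AK3, EIF2AK4 and EIF2S1 held no match to any of the 4. A match describes letters in a window and not the binding of a factor.

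Within a library, levels of different genes were compared in TPM of protein-coding transcripts, which take transcript length into account. EIF2S1 was the most abundant, with a mean of 104.6 TPM over the 12 libraries (89.5 to 115.4). This rank depended on the coding transcript EIF2S1-204 of 783 bases, which had a mean of 59.6 TPM from 13.4% of the counts. The longest EIF2S1 transcript, EIF2S1-201, had a mean of 36.5 TPM, against 69.7 for EIF2AK1-201 and 22.2 for EIF2AK2-201. EIF2AK2 (mean 71.5, range 30.4 to 121.5) and EIF2AK1 (mean 71.4, range 49.7 to 81.4) followed, and PPP1R15B (mean 52.3, range 37.4 to 74.1), PPP1R15A (mean 43.0, range 27.0 to 66.9) and EIF2AK4 (mean 35.1, range 25.2 to 40.01) came next. These neighbors in the order overlapped in their ranges, and the order over the 12 libraries did not hold in every group and library. In GFP the mean was 44.9 TPM for EIF2AK2 and 69.3 for EIF2AK1. In experiment 2 EIF2AK2 exceeded EIF2S1 in ΔGS (112.4 and 104.6 TPM) and in ΔADAM (121.5 and 102.4 TPM). EIF2AK3 stood below all the others with a mean of 4.61 TPM (2.64 to 7.35). That range did not reach the lowest value of any other of the 7 genes. With all transcripts summed, the EIF2S1 level became 314.9 TPM, as the retained-intron transcripts EIF2S1-203 and EIF2S1-205 are only 534 and 527 bases long and held 15.9% and 13.5% of the estimated counts of the gene.

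For comparisons between groups, estimated counts were summed per gene and tested with the quasi-likelihood test of edgeR, with a term for each experiment (block), and a gene was called when its fold change exceeded 1.5 and its Benjamini-Hochberg adjusted p over the 15090 tested genes was at most 0.05. All 7 genes passed the filter on low counts. In all 3 TYRO3 constructs together against GFP, 1 of the 7 genes was called (EIF2AK2, higher), beside 5.7% of all genes. In the separate comparisons the number was 1 in WT (EIF2AK2; all genes 2.37%), 2 in ΔGS (EIF2AK2 higher and EIF2AK3 lower; all genes 4.7%) and 1 in ΔADAM (EIF2AK2; all genes 5.21%). The 3 comparisons share the same GFP libraries and are given side by side.

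**Figure D1:**
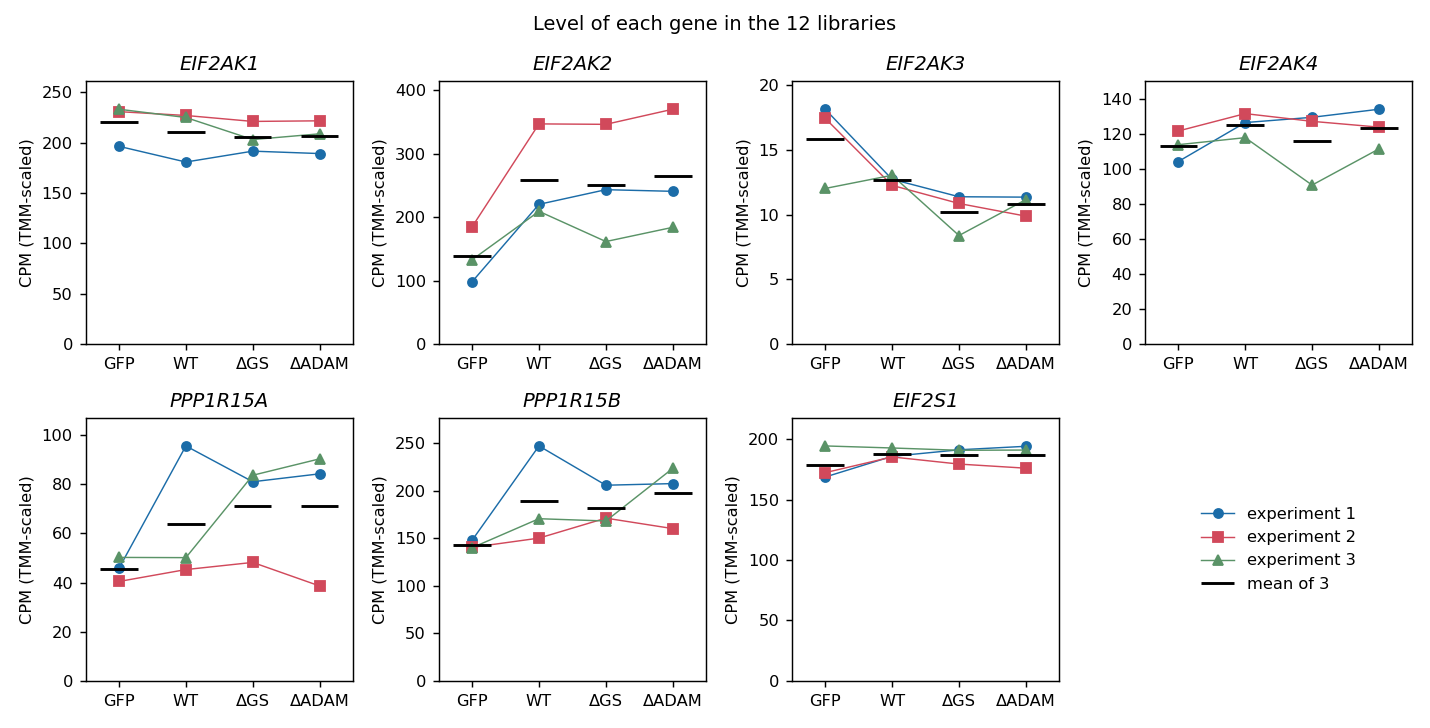
Level of each of the 7 genes in CPM (vertical axes, from 0) in GFP, WT, ΔGS and ΔADAM libraries, with 1 point per library, lines joining the libraries of an experiment and black bars for the mean of 3. EIF2AK2 lies above the GFP library of its own experiment in 9 of 9 TYRO3 libraries, EIF2AK3 below it in 8 of 9, and EIF2AK1, EIF2AK4 and EIF2S1 differ little between groups.

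EIF2AK2, the kinase activated by double-stranded RNA, rose with every construct. In GFP it was at 98.4, 184.8 and 133.0 CPM in experiments 1, 2 and 3, against 220.3, 347.0 and 209.3 in WT, 243.4, 346.3 and 161.7 in ΔGS and 240.8, 370.1 and 184.1 in ΔADAM. Every TYRO3 library was above the GFP library of its own experiment, although the pooled groups overlapped, since ΔGS and ΔADAM of experiment 3 lay below GFP of experiment 2. Of all tested genes, 12.7% were higher in 9 of 9 in this way. The log2 fold change was 0.87 (SE 0.15, adjusted p = 0.0142, edgeR) for WT, 0.81 (SE 0.15, adjusted p = 0.0127) for ΔGS and 0.89 (SE 0.15, adjusted p = 0.00772) for ΔADAM, and 0.86 (SE 0.13, adjusted p = 0.00267) for all constructs together, a 1.81-fold increase.

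The size of the EIF2AK2 increase varied over the experiments, a difference that was not tested. The mean log2 ratio to GFP over the 3 constructs was 1.25 in experiment 1, 0.94 in experiment 2 and 0.47 in experiment 3, where the ratio of ΔGS was 1.22-fold. Levels of EIF2AK2 in GFP also differed between experiments, from 98.4 to 184.8 CPM. None of the 4 calls was made without the block for experiment (adjusted p = 0.38 for WT, 0.27 for ΔGS, 0.214 for ΔADAM and 0.117 for all constructs). With a single term that set experiment 1 apart from experiments 2 and 3, the adjusted p values were 0.219, 0.175, 0.134 and 0.0733. In experiments 2 and 3 alone, with the block, the log2 fold change over all constructs was 0.72 (adjusted p = 0.0312), while WT (0.79, adjusted p = 0.123), ΔGS (0.60, adjusted p = 0.105) and ΔADAM (0.76, adjusted p = 0.0592) were not called. The WT call was lost without the WT library of experiment 1 (adjusted p = 0.0601) or 2 (adjusted p = 0.0661), and the ΔGS call without the ΔGS library of experiment 2 (adjusted p = 0.0505).

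EIF2AK2 had 3 transcripts with at least 10% of its counts, and all 3 were higher than in the GFP library of the same experiment in each TYRO3 library. The longest, EIF2AK2-201 (9975 bases, protein-coding), held 63.0% of the counts, with mean levels of 13.0 ± 5.26 TPM in GFP, 25.6 ± 7.79 in WT, 23.7 ± 9.78 in ΔGS and 26.6 ± 7.74 in ΔADAM (SD, n = 3). The shorter coding transcript EIF2AK2-204 held 14.8%, and its mean was 24.5 TPM in GFP and 38.7, 38.5 and 46.8 TPM in WT, ΔGS and ΔADAM. EIF2AK2-208, annotated as a target of nonsense-mediated decay, held 14.5% and went from a mean of 11.96 TPM in GFP to 31.4, 26.9 and 27.0 TPM. GPATCH11 overlaps EIF2AK2 on the opposite strand, and whether kallisto was run with a strand setting is not given in the sources used here.

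EIF2AK3, the endoplasmic reticulum kinase PERK, was the only gene of the 7 with a lower call, and this call was made in ΔGS alone. Its level was 18.1, 17.4 and 12.03 CPM in the GFP libraries of experiments 1, 2 and 3, 12.7, 12.3 and 13.1 in WT, 11.4, 10.9 and 8.395 in ΔGS and 11.4, 9.89 and 11.2 in ΔADAM. In experiments 1 and 2 all 6 TYRO3 libraries lay below GFP in CPM, while in experiment 3 the GFP level itself was low and WT was above it. In TPM of protein-coding transcripts, GFP of experiment 1 was at 4.82, against 5.03 in WT, 4.49 in ΔGS and 4.57 in ΔADAM. In experiment 2 these levels were 7.35, against 4.78, 4.33 and 3.83, and in experiment 3 they were 4.15, against 5.25, 2.64 and 4.12. The log2 fold change was -0.29 (SE 0.15, adjusted p = 0.285, edgeR) for WT, -0.62 (SE 0.15, adjusted p = 0.0301) for ΔGS, a 1.54-fold decrease, and -0.53 (SE 0.15, adjusted p = 0.0466) for ΔADAM, which missed the fold threshold. Over all constructs it was -0.48 (SE 0.12, adjusted p = 0.0231), also under the fold threshold.

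The call of EIF2AK3 in ΔGS rested on few reads and stood just past both thresholds. The gene had 69 estimated counts in the GFP library of experiment 1 and 192 to 647 in the other 11. The call was lost in 7 of 12 other settings. With edgeR these were the fit without the block (adjusted p = 0.193), the term for experiment 1 alone (0.08) and experiments 2 and 3 alone (0.159). Protein-coding transcripts only (0.0548) and the fit of only the groups compared (0.0586) also lost it, as did limma at a pseudocount of 0.1 (0.0991) and 1 (0.098). It was further lost in 6 of the 12 fits that left out 1 library. These were the fits without GFP of experiment 1 (adjusted p = 0.103) or 2 (0.12), without ΔGS of experiment 1 (0.0654), 2 (0.0781) or 3 (0.0759), and without ΔADAM of experiment 1 (0.0551). The fit without GFP of experiment 3 gave lower values, with a log2 fold change of -0.65 (adjusted p = 0.0197) over all constructs and -0.70 (adjusted p = 0.0336) in ΔADAM, both called. The transcripts EIF2AK3-201 and EIF2AK3-203 differ little in length (4537 and 4220 bases), and the share of the counts assigned to EIF2AK3-201 ran from 8.66% to 80.6% between libraries, so that only the sum over the gene was compared.

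The other kinases, HRI and GCN2, were not called in any comparison. EIF2AK1 lay between 180.8 and 233.2 CPM over the 12 libraries. Its log2 fold change over all constructs was -0.08 (95% interval -0.21 to 0.04). In CPM it was lower than GFP of its own experiment in 9 of 9 TYRO3 libraries, as were 13.8% of all tested genes. In TPM of protein-coding transcripts, GFP of experiment 1 (49.7) was below WT, ΔGS and ΔADAM (64.6, 65.8 and 67.3). In experiment 2 GFP was at 81.4, against 80.3, 78.3 and 78.0, and in experiment 3 at 77.0, against 78.9, 61.3 and 74.8. EIF2AK4 lay between 90.7 and 133.9 CPM, with a log2 fold change of 0.08 (95% interval -0.11 to 0.27). The ΔGS library of experiment 3 was its lowest, and there the main coding transcript EIF2AK4-201 held 47.4% of the counts of the gene and 10.7 TPM, against 90.7% over all libraries and 18.3 to 37.5 TPM in the other 11. AIMP2 and ANKRD61 overlap EIF2AK1 on the opposite strand.

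**Figure D2:**
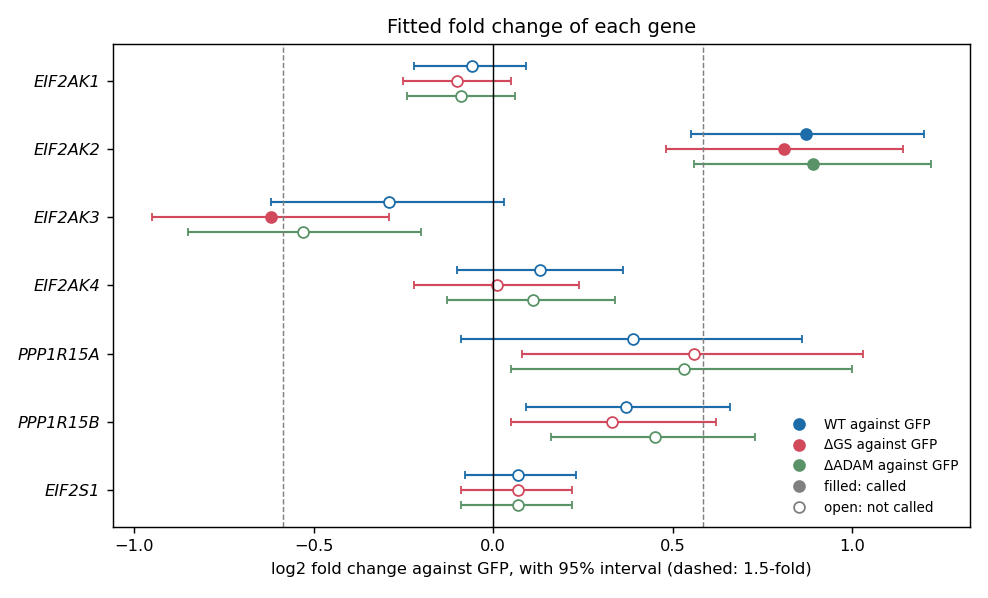
Fitted log2 fold change (horizontal axis) of each gene in WT, ΔGS and ΔADAM against GFP, with 95% intervals and dashed lines at 1.5-fold in either direction; filled points were called. EIF2AK2 is called in the 3 constructs (0.87, 0.81 and 0.89) and EIF2AK3 in ΔGS (-0.62), and the intervals of EIF2AK1, EIF2AK4 and EIF2S1 include 0.

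The mean levels of both phosphatase subunits were higher with each construct than in GFP, but neither gene passed both thresholds. PPP1R15B, the constitutive subunit, was at 147.8, 140.4 and 140.0 CPM in GFP of experiments 1, 2 and 3, 247.0, 150.1 and 170.5 in WT, 205.7, 171.1 and 168.1 in ΔGS and 207.4, 160.1 and 223.4 in ΔADAM. All 9 TYRO3 libraries were above all 3 GFP libraries, which held for 5.03% of the tested genes. The log2 fold change was 0.37 (SE 0.13, adjusted p = 0.125, edgeR) for WT, 0.33 (SE 0.13, adjusted p = 0.127) for ΔGS and 0.45 (SE 0.13, adjusted p = 0.05004) for ΔADAM. Over all constructs the gene rose 1.31-fold (log2 fold change 0.38, SE 0.11, adjusted p = 0.035), under the fold threshold, beside 15.9% of genes past the p threshold at any fold. This p was 0.154 without the block and 0.0726 with the term for experiment 1 alone. In experiments 2 and 3 alone the log2 fold change was 0.32 (adjusted p = 0.2, edgeR), and with 1 library left out the adjusted p reached 0.178. PPP1R15B has a single transcript in the files.

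PPP1R15A, the inducible subunit, varied more between experiments. It was at 45.8, 40.4 and 50.2 CPM in GFP of experiments 1, 2 and 3, 95.5, 45.3 and 50.1 in WT, 81.0, 48.2 and 83.6 in ΔGS and 84.2, 38.6 and 90.3 in ΔADAM. In experiment 1 all 3 constructs stood well above GFP, in experiment 2 all 4 libraries were close, and in experiment 3 ΔGS and ΔADAM were high while WT was level with GFP. The log2 fold change was 0.39 (SE 0.22, adjusted p = 0.333, edgeR) for WT, 0.56 (SE 0.21, adjusted p = 0.127) for ΔGS, 0.53 (SE 0.21, adjusted p = 0.141) for ΔADAM and 0.49 (SE 0.18, adjusted p = 0.0918) over all constructs. In experiments 2 and 3 alone the value over all constructs was 0.35 (adjusted p = 0.373). The GFP library of experiment 1 held 174 estimated counts of PPP1R15A.

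The substrate EIF2S1 stayed uncalled in every comparison. Its level lay between 168.6 and 194.3 CPM over all libraries, and its log2 fold change was 0.07 for each construct, with a 95% interval of -0.06 to 0.19 over all constructs. ATP6V1D overlaps EIF2S1 on the opposite strand.

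**Figure D3:**
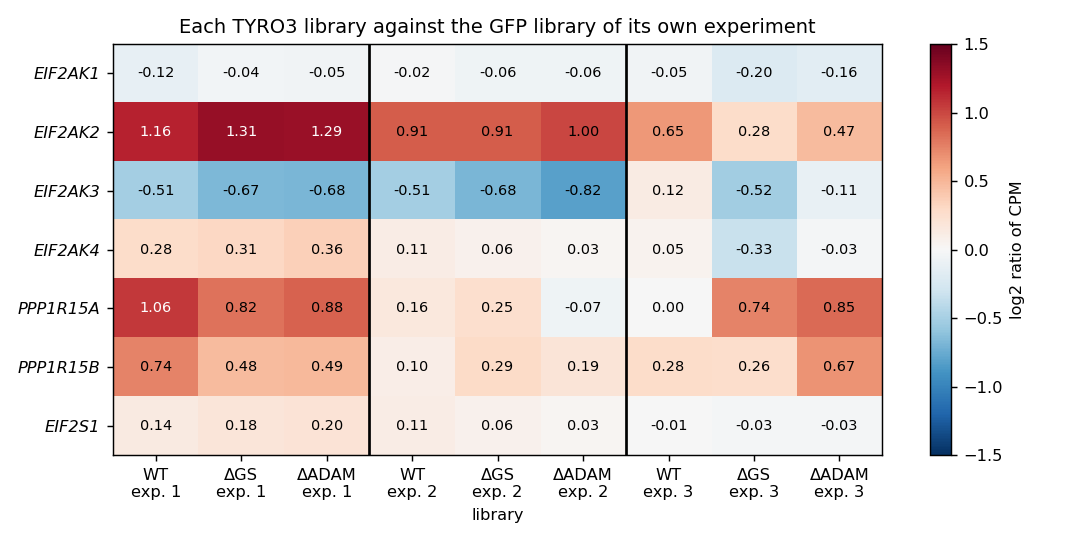
Log2 ratio of the CPM of each TYRO3 library to the GFP library of its own experiment (color and printed value) for the 7 genes (rows) and 9 libraries (columns, grouped by experiment). The EIF2AK2 ratios are largest in experiment 1 (1.16 to 1.31) and smallest in experiment 3 (0.28 to 0.65), and PPP1R15A is near 0 in experiment 2 (-0.07 to 0.25).

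WT was compared with both resistant variants, and the variants with each other, to ask whether the transcripts of these genes depended on the cleavage of the receptor. None of the 7 genes was called, as none of the 15090 genes was (0% in both comparisons, edgeR). At an unadjusted p under 0.05 there were 238 genes in WT against the variants (1.58%), 1 of them of the 7, and 217 in ΔGS against ΔADAM (1.44%), none of them of the 7. DESeq2 called 13 and 9 genes in these comparisons, none of the 7, and limma called 0 in both. The gene at an unadjusted p under 0.05 was EIF2AK3, with a log2 difference of 0.28 between WT and the variants (95% interval 0.00 to 0.55). For EIF2AK2 the difference was 0.03 (95% interval -0.25 to 0.30), for PPP1R15A -0.15 (-0.56 to 0.25) and for PPP1R15B -0.02 (-0.26 to 0.22), so that differences up to these limits could not be told from 0 with 3 libraries a group. Between ΔGS and ΔADAM the differences of the 7 genes lay between -0.11 and 0.03.

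The rest of the machinery around eIF2 was followed with fixed lists. In the eIF2 complex and its exchange factors, 0 of 8 genes passed both thresholds over all constructs, with a median log2 fold change of 0.001 beside -0.003 over all genes. EIF2S2, which encodes the β subunit of eIF2, rose by less than the fold threshold, with a log2 fold change of 0.45 (adjusted p = 0.00419, edgeR), and the levels of EIF2S3, the γ subunit (0.12, adjusted p = 0.122), and EIF2B5, a catalytic subunit of the exchange factor (-0.07, adjusted p = 0.46), differed less. EIF2S2 was at 183.0, 170.9 and 220.5 CPM in GFP of experiments 1, 2 and 3 and between 203.3 and 345.2 CPM in the TYRO3 libraries, above GFP of its own experiment in each. Of the catalytic subunits of protein phosphatase 1, 0 of 3 passed both thresholds. PPP1CB fell by 0.20 on the log2 scale, past the p threshold alone (adjusted p = 0.0324), and PPP1CC (-0.13, adjusted p = 0.165) and PPP1CA (-0.03, adjusted p = 0.893) were not significant. EIF2S2 and PPP1CB did not pass the p threshold without the block (adjusted p = 0.127 and 0.162), and their adjusted p was 0.102 and 0.0738 with the term for experiment 1 alone.

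Among 10 known regulators of the kinases, 0 passed both thresholds, and 2 rose and 2 fell at an adjusted p of at most 0.05 and any fold, beside 15.9% of all genes. ADAR, an RNA-editing enzyme that limits the activation of PKR and is itself interferon-inducible, rose with a log2 fold change of 0.50 (adjusted p = 0.0134, edgeR). PRKRA, the protein activator of PKR, fell by 0.33 on the log2 scale (adjusted p = 0.023), and NCK1, an adaptor that counteracts eIF2α phosphorylation, rose by 0.27 (adjusted p = 0.023). The highest ADAR levels were in the TYRO3 libraries of experiment 2 (913.6 to 986.6 CPM, GFP 611.7). In experiment 3 the ΔGS library (499.8 CPM) was below GFP (511.0). None of the 4 passed the p threshold without the block (adjusted p = 0.194 for ADAR, 0.104 for PRKRA, 0.128 for NCK1 and 0.101 for TARBP2, the fourth, named after its values were seen) or with the term for experiment 1 alone (0.151, 0.0664, 0.0593 and 0.0578).

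**Figure D4:**
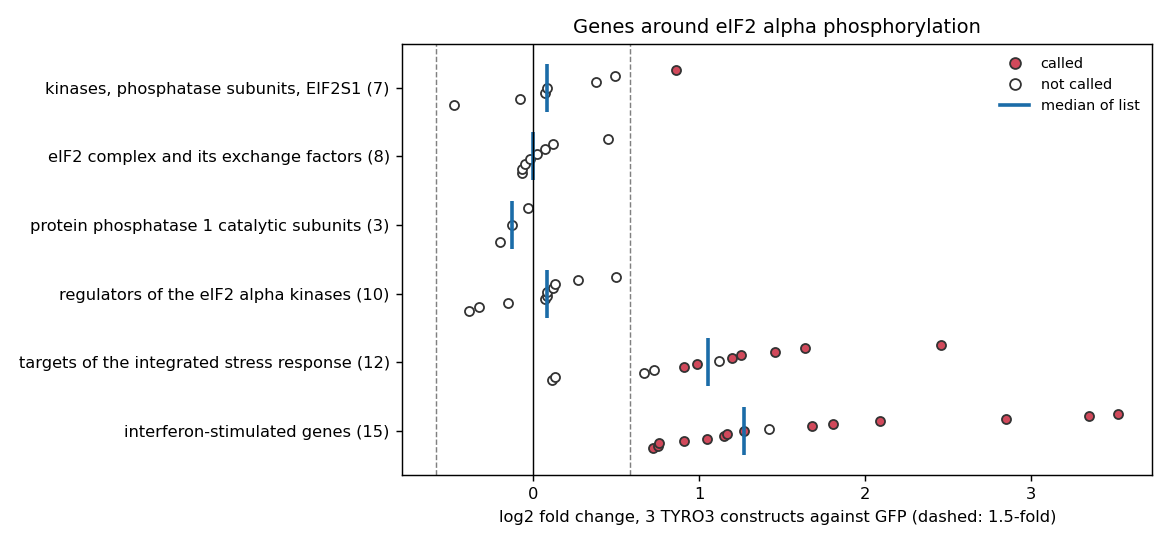
Log2 fold change of all TYRO3 constructs against GFP (horizontal axis) for the genes of 6 lists, with 1 point per gene, filled where called, a blue line at the median of each list and dashed lines at 1.5-fold. The called genes are EIF2AK2, 7 of 12 targets of the integrated stress response and 14 of 15 interferon-stimulated genes, beside 5.7% of all genes. The lists of the eIF2 complex, the phosphatase and the regulators hold none.

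Targets of the integrated stress response lie downstream of eIF2α phosphorylation. Over all constructs 7 of 12 were called higher, beside 5.7% of all genes, with a median log2 fold change of 1.06. The number was 2 in WT, 6 in ΔGS and 7 in ΔADAM (all genes 2.37%, 4.7% and 5.21%). In WT against both variants 0 of 12 were called, beside 0% of all genes, with a median log2 difference of -0.22. PSAT1, an enzyme of serine synthesis, rose by 1.25 (adjusted p = 9.9e-05, edgeR), ASNS, asparagine synthetase, by 1.64 (adjusted p = 0.000462), and CHAC1, a glutathione-degrading enzyme, by 2.46 (adjusted p = 0.00877) on the log2 scale. CHAC1 was between 3.68 and 8.34 CPM in GFP and reached 106.8 CPM in ΔADAM of experiment 3. The list had no call without the block, 3 with the term for experiment 1 alone, 4 in experiments 2 and 3 alone, 3 without GFP of experiment 1 and 2 without GFP of experiment 3. Of the 12 targets, all with a promoter in the table, 1 (CHAC1, named after its match was seen) held the C/EBP-ATF element.

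The summed level of these 12 targets in experiments 1, 2 and 3 was 755.3, 835.4 and 1133 CPM in GFP, 2111, 1258 and 1970 in WT, 1695, 1675 and 3115 in ΔGS and 1827, 1524 and 3025 in ΔADAM. PPP1R15A was highest in WT of experiment 1 (95.5 CPM), followed by ΔADAM of experiment 3 (90.3 CPM), ΔADAM of experiment 1 (84.2 CPM), ΔGS of experiment 3 (83.6 CPM) and ΔGS of experiment 1 (81.0 CPM), an order that differed from that of the sums. In WT of experiment 3 the sum was 1.74 times that of GFP, while PPP1R15A was 0.998 times its GFP level. In experiment 2 the sums were 1.51 to 2.01 times that of GFP, while PPP1R15A was 0.955 to 1.19 times its GFP level. After the mean of each experiment was subtracted, the median correlation of log2 CPM with the 12 targets over the 12 libraries was 0.89 for PPP1R15A, 0.84 for PPP1R15B, 0.66 for EIF2AK2, 0.44 for EIF2S1 and 0.16 for EIF2AK4, and it was -0.70 for EIF2AK3 and -0.87 for EIF2AK1. These correlations share libraries and group differences and are given as a description, and the medians over all genes ran from -0.07 to 0.03.

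Of the 15 interferon-stimulated genes, 14 were called higher over all constructs, beside 5.7% of all genes, with a median log2 fold change of 1.27. In WT, ΔGS and ΔADAM 13, 14 and 13 were called (all genes 2.37%, 4.7% and 5.21%). Like the other lists, this list was chosen with earlier results of these data known. OAS2 and OAS1, which make the oligoadenylates that activate RNase L, rose by 3.53 (adjusted p = 9.1e-05, edgeR) and 3.35 (adjusted p = 0.000169) on the log2 scale, and DDX58, the cytosolic RNA sensor RIG-I, by 1.15 (adjusted p = 0.000541). The list had 0 calls without the block and 2 with the term for experiment 1 alone, but 12 in experiments 2 and 3 alone. The summed level in experiments 1, 2 and 3 was 445.0, 902.6 and 547.8 CPM in GFP, 1267, 2752 and 1044 in WT, 1505, 2616 and 1123 in ΔGS and 1440, 3172 and 846 in ΔADAM. Both EIF2AK2 and this sum were highest in experiment 2, in GFP as well as in the TYRO3 libraries, and both had their smallest ratios to GFP in experiment 3 (1.22 to 1.57 for EIF2AK2 and 1.55 to 2.05 for the sum). The median correlation of EIF2AK2 with the 14 genes of the list at a mean of at least 5 CPM was 0.92 (0.80 to 0.98), after the mean of each experiment was subtracted. It was 0.75 for EIF2S1, 0.64 for PPP1R15B, 0.60 for PPP1R15A and 0.45 for EIF2AK4, and -0.56 for EIF2AK1 and -0.81 for EIF2AK3. These correlations, too, share libraries and group differences and are given as a description. An interferon element like that in the EIF2AK2 promoter was present in 8 of the 11 listed genes with a promoter in the table.

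**Figure D5:**
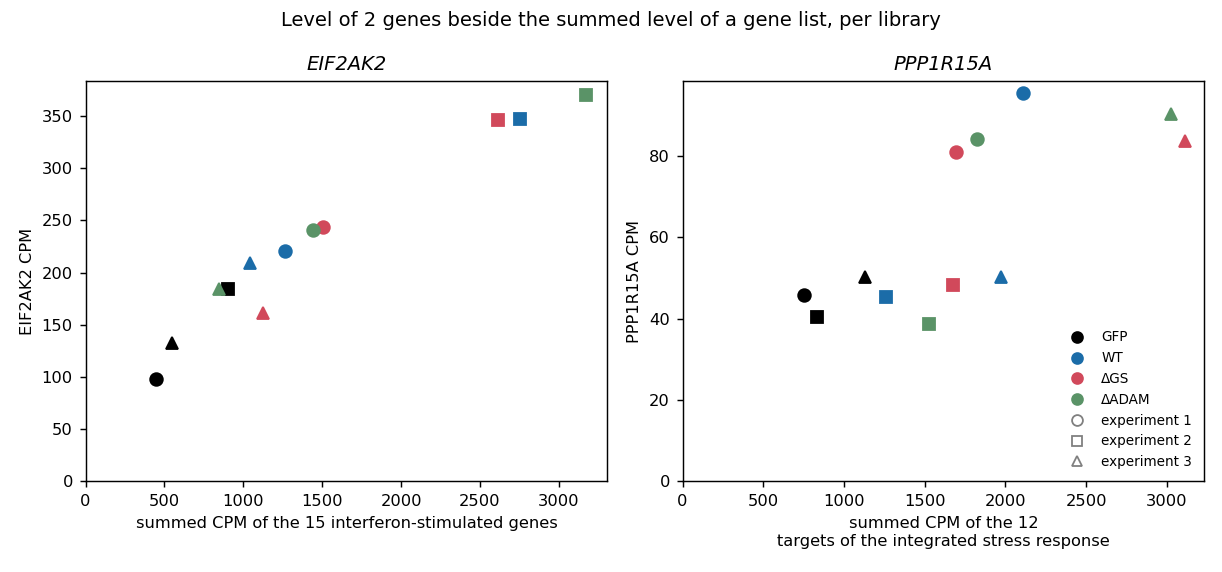
EIF2AK2 in CPM beside the summed CPM of 15 interferon-stimulated genes (left) and PPP1R15A in CPM beside the summed CPM of 12 targets of the integrated stress response (right), with 1 point per library, color for the group and shape for the experiment. EIF2AK2 follows the sum over its range from 98.4 to 370.1 CPM, while the PPP1R15A level of experiment 2 stays between 38.6 and 48.2 CPM at sums from 835.4 to 1675 CPM.

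The genes whose pattern over the 12 libraries was most like that of each gene, among 11086 genes with a mean of at least 5 CPM, were PARP14, SAMD9 and SAMHD1 for EIF2AK2 (Pearson's r of 0.997, 0.993 and 0.991, experiment means subtracted) and TFAP4, MEF2D and PCTP for PPP1R15A (0.985, 0.981 and 0.978). OGT, ANKRD11 and ITPRIP were closest to PPP1R15B (0.987, 0.984 and 0.979), and RGS5, SLC23A2 and NHSL1 to EIF2AK3 (0.964, 0.955 and 0.934). For EIF2AK1 these were RNF2, STK38L and TOR1AIP1 (0.979, 0.977 and 0.977), for EIF2AK4 PDS5A and EP400 (0.984 and 0.982), and for EIF2S1 NAT10, ORC1 and INPP5A (0.988, 0.982 and 0.978). Among the 7 genes, the phosphatase subunits were the most alike (r = 0.84), followed by EIF2AK2 and EIF2S1 (0.80), and PPP1R15A and EIF2AK1 were the most opposed (-0.82). Like those with the lists, all these correlations share libraries and group differences and are given as a description.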

How the data were processed

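Total RNA was sequenced as stranded polyA libraries (TruSeq Stranded mRNA, 75-base paired-end reads). After quality control with FastQC 0.11.9, the authors used PRINSEQ and Trimmomatic 0.33 for trimming and quantified the transcripts of Ensembl 96 with kallisto 0.46.0, per the paper and the submitters' processing notes. The deposited files hold an estimated count and a TPM value for each of 188753 transcripts, before the batch correction and library size normalization of the paper. Groups and experiments were taken from the labels.

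Transcripts were assigned to gene symbols with GENCODE 29 (GRCh38), which matched 97.4% to 97.5% of the estimated counts of each library, and summed per gene. Sums were rounded and tested with edgeR 4.0.16 (R 4.3.3, TMM, quasi-likelihood test), with group and experiment as terms and all 12 libraries. Genes were kept by filterByExpr with a minimum count of 10, which need not be reached in every library, and a minimum total of 15. This left 15090 genes. The labels give each library the number of its experiment, and libraries of the same experiment deviated together (correlation of residuals 0.0389 to 0.53, median 0.294 over 18 pairs; other pairs -0.373 to 0.0535), so the experiment was kept as a block. The labels call the experiments replicates but do not say more on the cultures, so that p-values measure the spread between these libraries. The tested fold and p thresholds are those of the study's methods. CPM values are TMM-scaled. Correlations used log2 CPM with a prior count of 2. Alternatives were DESeq2 1.42.0, limma 3.58.1 on log2-transformed TPM (pseudocount 1 or 0.1), other filters and size factors, protein-coding transcripts only, fits without the block, and leaving out each library. Simulated data with the design of all constructs against GFP were tested over 14869 genes. Genes were counted there at an adjusted p of at most 0.05 without the fold threshold, so that the shares do not refer to calls. Of 50 genes changed 1.5-fold 76% passed, and of 50 changed 2-fold 84%. Of 50 changed 3-fold 90% passed, and of 50 changed 4-fold 96%. Of the unchanged genes 7 passed. Each changed gene had the same simulated fold in every TYRO3 library. The ratios of EIF2AK2 and PPP1R15A varied between experiments, and such variation was not simulated.

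The 7 genes and all lists were chosen with earlier results of these data known. Named genes were the 7, the 3 of each list with the smallest p over all constructs, the 3 with the highest correlation to each of the 7 (1 of those for EIF2AK4 is not reported here), and transcripts with at least 10% of the counts of a gene. A search of protein sequences for the phosphorylation and phosphatase-binding motifs was planned and not run. Promoters came from RefSeq (GRCh38.p14).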

Additional observations from a re-analysis of the deposited data

How the results depend on the processing

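Each of the 7 genes was refitted in 6 comparisons under 24 alternatives, which gave 1008 log2 fold changes: 927 kept their direction and side of the thresholds, 29 kept the direction but lost the call, 5 gained one and 47 changed sign, all 47 of them in values that were not called. The number of the 7 genes called fell to 0 in WT, ΔGS, ΔADAM and all constructs without the replicate block and also with a batch term for experiment 1 in its place, and to 0 in WT, ΔGS and ΔADAM (not in all constructs, 1) in experiments 2 and 3 alone. In ΔGS it fell from 2 to 0 with limma at a pseudocount of 0.1 and in the fit of only the groups compared, and to 1 with limma at a pseudocount of 1 and with protein-coding transcripts only. Without a threshold on the fold it was 2 in ΔADAM and 3 in all constructs. Leaving out 1 library gave 0 to 1 in WT, 0 to 2 in ΔGS, 1 to 2 in ΔADAM and 1 to 2 in all constructs. The blocked and unblocked fits gave the same calls (0) between the constructs. The cause of these changes was not tested.

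Signs changed in small values. In WT against GFP, EIF2AK1 was 0.0004 with protein-coding transcripts only. In ΔGS against GFP, EIF2AK4 was -0.12 in experiments 2 and 3 alone, -0.07 with protein-coding transcripts only and -0.08 to 0.13 with 1 library left out (-0.002 to 0.18 in all constructs). In WT against both variants, PPP1R15B was 0.01 with limma at either pseudocount and 0.0002 without the block, and EIF2AK2 was -0.003 with the batch term and -0.01 with protein-coding transcripts only. With 1 library left out the ranges there were -0.01 to 0.07 for EIF2AK1, -0.05 to 0.09 for EIF2AK2, -0.41 to 0.10 for PPP1R15A, -0.18 to 0.07 for PPP1R15B and -0.02 to 0.02 for EIF2S1. In ΔGS against ΔADAM, EIF2S1 was -0.01 with DESeq2, with at least 10 counts in every library, in experiments 2 and 3 alone and with size factors of the DESeq2 type, -0.08 with limma at either pseudocount and -0.005 in the fit of only the groups compared, and PPP1R15A was -0.02 with limma at either pseudocount and -0.004 without the block. With 1 library left out the ranges there were -0.04 to 0.03 for EIF2AK1, -0.21 to 0.06 for EIF2AK2, -0.19 to 0.03 for EIF2AK3, -0.18 to 0.02 for EIF2AK4, -0.15 to 0.25 for PPP1R15A, -0.19 to 0.03 for PPP1R15B and -0.02 to 0.03 for EIF2S1.

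The number of all genes called, 357, 709, 786 and 860 in WT, ΔGS, ΔADAM and all constructs, was 3, 4, 5 and 19 without the block, 6, 69, 171 and 501 with the batch term, 48, 185, 220 and 317 in experiments 2 and 3 alone, 545, 1355, 1546 and 2403 at any fold, and 151, 269, 287 and 387 without GFP of experiment 1. In WT it was 604 with DESeq2, 577 without a filter on low counts, 230 and 222 with limma at a pseudocount of 1 and 0.1, 30 in the fit of only the groups compared and 79 to 608 over the fits without 1 library. In ΔGS it was 421 and 441 with limma at a pseudocount of 0.1 and 1, 469 in the fit of only the groups compared and 269 to 777 without 1 library. In ΔADAM it was 494 and 511 with limma and 198 to 876 without 1 library. The GFP library of experiment 1, with the lowest total, held 69 estimated counts of EIF2AK3 and 174 of PPP1R15A.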
